A study of Mus musculus with 61 samples.

Results

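Nasp, Daxx, Atrx and Cabin1 encode histone chaperones or partners of chaperones that act beside CAF-1. They were taken by gene symbol from a deposited table of Sono-seq values, where they are 4 of 5154 genes and hold 13 of 22594 rows. These rows give 5 of 5513 promoter start sites (2 for Nasp, 1 for each of the others) and 9 of 14265 enhancers. Sox2 binding positions were then collected within 100 kb of the start sites from 3 deposited lists.

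CAF-1 places newly made histones H3 and H4 on DNA behind the replication fork. NASP binds soluble H3 and H4 and keeps a reserve of them from being degraded. DAXX is a chaperone of the replacement histone H3.3, and with the chromatin remodeller ATRX it brings H3.3 to heterochromatin and telomeres. CABIN1, first described as an inhibitor of calcineurin, is also a subunit of the HIRA complex, which deposits H3.3 outside replication.

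The study asked how loss of CAF-1 alters the reprogramming of mouse embryonic fibroblasts (MEFs) to pluripotency. Every group used here came from Black6-129X1/SvJ embryos of E13.5 that carry Col1a1::tetOP-OKSM, a doxycycline-inducible cassette of Oct4, Klf4, Sox2 and Myc, together with R26-M2rtTA, the transactivator that responds to the drug. Control and knockdown cells thus shared both alleles, doxycycline, and a serum/LIF medium with ascorbate, and they were taken at day 3. The hairpins were Renilla, a control against luciferase, and Chaf1a.166 and Chaf1a.2122, both against the large subunit of CAF-1. Sox2 ChIP-seq accounts for 6 of the 61 samples, with 1 immunoprecipitate (goat anti-Sox2) and 1 input per hairpin. Sono-seq accounts for another 6, with 3 libraries labelled CAF-1 knockdown, the hairpin not stated, and 3 labelled Renilla. Sono-seq reads the DNA freed by sonication of cross-linked chromatin, to which open regions contribute more. The remaining 49 samples, RNA-seq and ATAC-seq among them, were not analysed here, which leaves the depletion of Chaf1a, the RNA of the 4 chaperone genes and the markers of the labelled cell type unchecked.

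Neither kind of data allows a test between knockdown and control. The Sono-seq table has 1 value per region and condition, and each hairpin has 1 immunoprecipitate. The spread between cultures is therefore not known for any value below, and read depth is unknown. Enhancers of 1 gene, and the 2 Nasp start sites, which lie 454 bp apart, are not replicates of each other.

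The promoter sequences are shown first because the largest Sono-seq difference among these start sites lay at Nasp, and because Sox2 positions of the knockdown lists lay near the starts of Nasp and Cabin1. RefSeq windows of 300 bases (250 before and 50 after the start, build GRCm38.p6) were found for all 4 genes. Capitals mark CCAAT boxes (CCAAT, or ATTGG on the other strand) and GC boxes (GGGCGG or CCGCCC).
Nasp, chr4:116627902-116628201, minus strand: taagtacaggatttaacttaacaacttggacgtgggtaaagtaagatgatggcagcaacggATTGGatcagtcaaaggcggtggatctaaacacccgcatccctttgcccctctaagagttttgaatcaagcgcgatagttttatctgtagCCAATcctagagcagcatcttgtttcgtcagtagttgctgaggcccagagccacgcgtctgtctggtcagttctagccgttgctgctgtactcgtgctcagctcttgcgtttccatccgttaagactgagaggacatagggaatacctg
Daxx, chr17:33909195-33909494, plus strand: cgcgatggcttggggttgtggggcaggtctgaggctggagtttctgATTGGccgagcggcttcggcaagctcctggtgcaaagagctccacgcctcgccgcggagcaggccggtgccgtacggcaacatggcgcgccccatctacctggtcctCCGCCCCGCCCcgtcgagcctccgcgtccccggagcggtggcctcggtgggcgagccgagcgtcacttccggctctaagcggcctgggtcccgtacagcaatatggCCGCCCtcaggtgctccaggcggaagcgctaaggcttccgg
Atrx, chrX:105929323-105929622, minus strand: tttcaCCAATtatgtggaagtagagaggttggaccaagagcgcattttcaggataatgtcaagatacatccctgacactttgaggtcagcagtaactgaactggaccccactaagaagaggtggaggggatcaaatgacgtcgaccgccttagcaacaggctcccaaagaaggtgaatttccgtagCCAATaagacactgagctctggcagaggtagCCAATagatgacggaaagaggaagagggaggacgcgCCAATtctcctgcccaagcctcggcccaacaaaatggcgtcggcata
Cabin1, chr10:75764308-75764607, minus strand: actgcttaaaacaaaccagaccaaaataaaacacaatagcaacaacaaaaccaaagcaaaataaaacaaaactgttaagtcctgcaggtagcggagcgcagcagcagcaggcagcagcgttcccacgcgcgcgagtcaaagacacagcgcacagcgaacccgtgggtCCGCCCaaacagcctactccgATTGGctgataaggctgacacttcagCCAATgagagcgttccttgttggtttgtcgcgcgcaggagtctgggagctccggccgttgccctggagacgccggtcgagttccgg
RefSeq gives 3 overlapping windows for Daxx, and the one that begins farthest upstream is printed. The Daxx window was the richest of the printed windows in G and C, at 69.7% with 33 CpG dinucleotides. Cabin1 stood at 54.7% with 22, Atrx at 50.3% with 11 and Nasp at 48.3% with 13, beside medians of 52.7% and 7 over 32851 full-length windows. A CCAAT box, found in 37.4% of all windows, occurred 4 times in Atrx, 2 times in Nasp, 2 times in Cabin1 and 1 time in the printed Daxx window. A GC box, found in 35.7% of windows, occurred 3 times in the printed Daxx window and 1 time in Cabin1, with 1 pair of the Daxx matches overlapping. The Sox cores ACAAAG (18.7% of windows) and ACAATG (12.6%), the octamer ATGCAAAT (1.74%), the E2F strings TTTCCCGC (1.07%) and TTTGGCGC (0.514%) and TATAAA (13.6%) were searched on both strands and had no match in these windows. The Sox2 positions near Nasp and Cabin1 lay 747 to 894 bp from the start sites, outside the printed stretches. For Nasp the distance is to the nearer of its 2 start sites in the Sono-seq table, that of NM_001081475. The printed Nasp window is not labelled by transcript.

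At the promoters, the Nasp start sites carried less Sono-seq signal in the knockdown, and those of Daxx, Atrx and Cabin1 were close to the control. At the Nasp start site of transcript NM_001081475 (mm9, chromosome 4, position 116300102) the authors' value, whose unit is not stated, was 0.0853 for CAF-1 knockdown and 0.119 for Renilla. The knockdown value was 71.6% of the control, a log2 ratio of -0.48, and 104 of the 5513 promoters had a lower ratio. At the start site of NM_016777 (position 116300556) the values were 0.0840 and 0.115, a log2 ratio of -0.46. Both ratios lie below the 5th percentile of all promoters, which is -0.39, while the median of all promoters is -0.01 (SD over promoters 0.23). That SD covers promoters of every level, whereas the Nasp values were low. Their means exceed those of 6.49% (NM_001081475) and 5.73% (NM_016777) of all promoters. These means include the lower knockdown values. In the control alone the values exceed those of 18.8% and 15.1% of all promoters, and in the knockdown those of 3.48% and 3.27%.

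Daxx had the highest promoter values of the 4 genes. At NM_007829 (chromosome 17, position 34046442) the value was 0.165 in the knockdown and 0.176 in the control, a log2 ratio of -0.10. The mean of both values exceeds that of 85.5% of all promoters. At Cabin1 (NM_172549, chromosome 10, position 75227102) the values were 0.139 and 0.141, a log2 ratio of -0.02. They lay near the medians of all promoters, which are 0.141 for the knockdown and 0.143 for the control.

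Atrx was the one promoter of the 5 with a higher value in the knockdown, by a small amount. At NM_009530 (X chromosome, position 103124711) the values were 0.0916 in the knockdown and 0.0886 in the control, a log2 ratio of 0.05. The mean of the pair exceeds that of 3.36% of all promoters. Among the 139 promoters on the X chromosome it exceeds that of 61.9%, since X promoters had medians of 0.0788 and 0.0844 where autosomal promoters had 0.142 and 0.143. The Atrx values were thus low among all promoters but not among those of its chromosome, and the number of X chromosomes in these cells is not in the labels.

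In the control the order of the promoter values was Daxx, Cabin1, Nasp and Atrx. In the knockdown it was Daxx, Cabin1, Atrx and Nasp, because the Nasp values were below that of Atrx. Without a spread over libraries it cannot be said which neighbours in either order differ, and the width over which the authors took each value is not given.

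**Figure D1:**
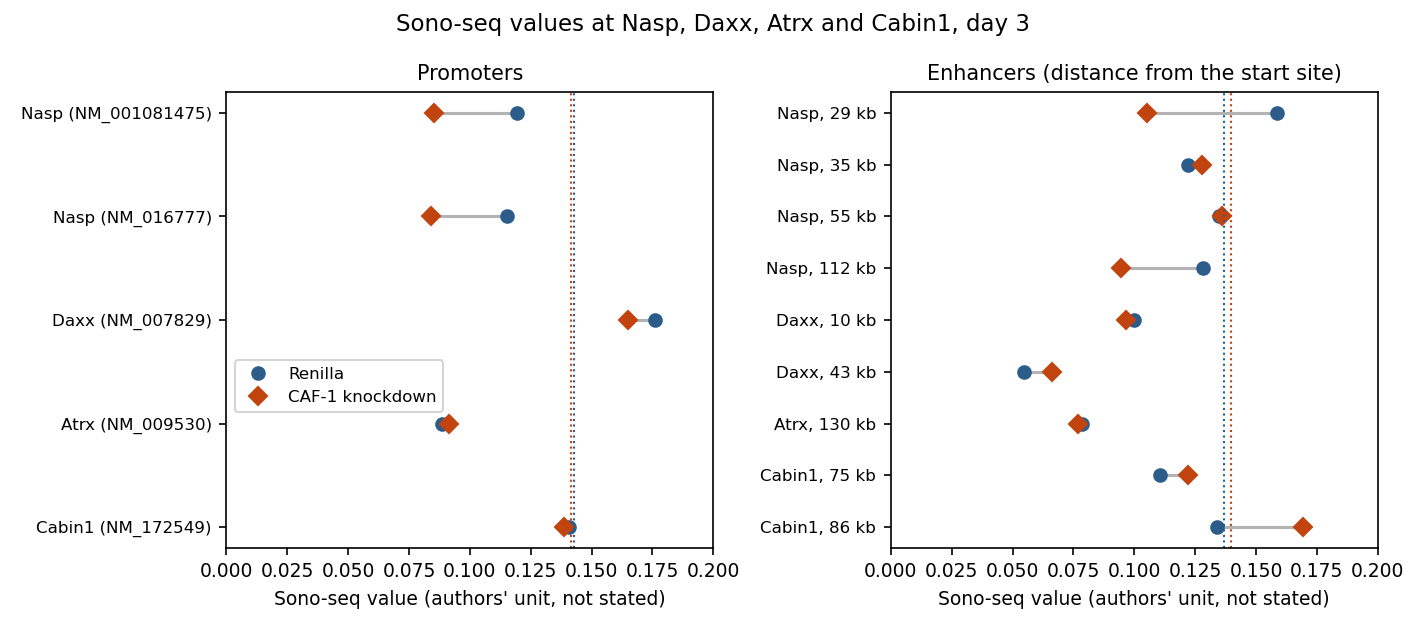
Sono-seq values (x axis, in the authors' unstated unit) at the 5 promoters and 9 enhancers of Nasp, Daxx, Atrx and Cabin1, with 1 circle for Renilla and 1 diamond for CAF-1 knockdown per region, and dotted lines at the medians of all promoters or all enhancers in each condition. The widest gaps are those of both Nasp promoters, of the Nasp enhancers at 29.1 and 112 kb, and of the Cabin1 enhancer at 85.8 kb.

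A difference of 1.25-fold was used as a line for counting, with no error attached to it. Both Nasp start sites were lower by at least that much, beside 8.98% of all promoters, and 0 of the 5 were higher by that much, beside 6.68%. With a pseudocount of 0.05, the Nasp start site of NM_016777 fell short of the line. By any amount, 4 of the 5 were lower, beside 51.8% of all promoters. The median log2 ratio of the 5 start sites was -0.10, which is the value of Daxx. Counted as 1 value per gene, with both Nasp start sites averaged (a choice made after seeing the data), the median was -0.06.

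**Figure D2:**
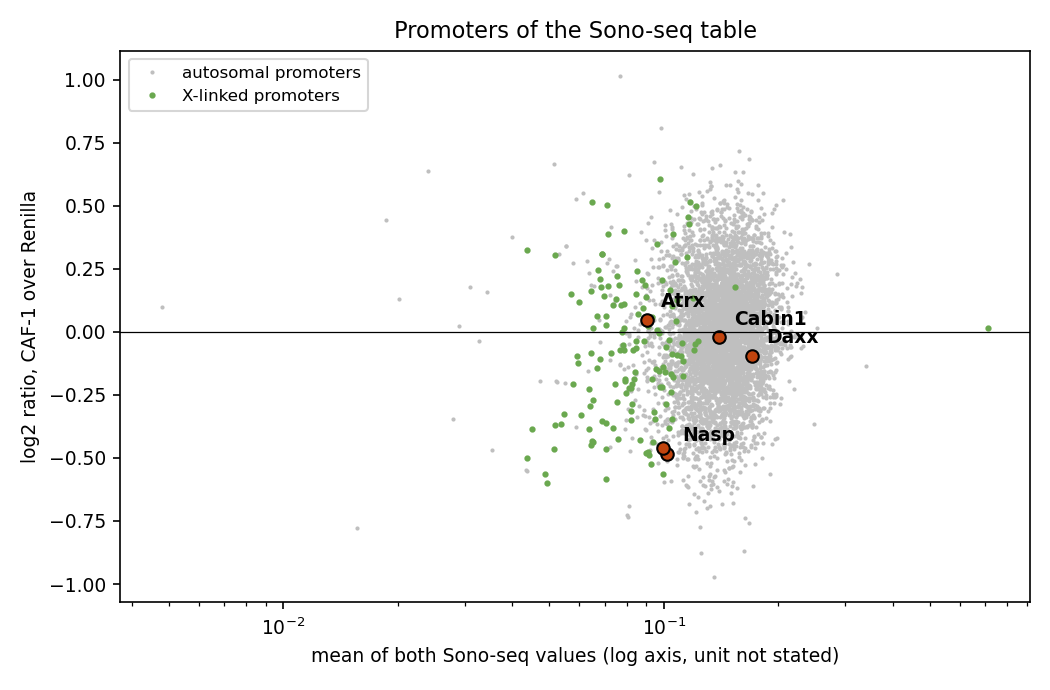
Log2 ratio of the Sono-seq value in CAF-1 knockdown over Renilla (y axis) against the mean of both values (x axis, log scale) for all 5513 promoters. X-linked promoters have their own colour, and the promoters of the 4 genes are marked. Both Nasp points lie below the horizontal line of equal values, at log2 ratios of -0.48 and -0.46, while Daxx, Atrx and Cabin1 lie within 0.10 of it.

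Promoters with the most similar pair of values were looked up by distance over the log2 values of both conditions, which are 2 numbers per promoter. Near the first Nasp start site lay Rod1, with a log2 ratio of -0.51. Near the other lay Mad2l1bp at -0.48 and Vezf1 at -0.42. Daxx lay nearest to Dgat1 and 1700086O06Rik, and Cabin1 to Gcnt2 and Mtap1b. Atrx lay nearest to Hist1h2an and to Atp7a, its own neighbour on the X chromosome (0.0913 and 0.0899). With 2 values per promoter, such likeness is a matter of level and ratio alone.

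The lower Nasp values were not shared by the promoters around it. Within 100 kb of the Nasp start sites the table lists 8 other promoters. Their log2 ratios ran from -0.06 (Akr1a4) to 0.25 (Mmachc) with a median of 0.12. Of the 8, which belong to 1 locus, 6 were higher in the knockdown, beside 2658 of all 5513 promoters. Prdx1, a peroxiredoxin gene 57.6 kb away, had 0.176 in the knockdown and 0.169 in the control. Daxx, which lies at the edge of the major histocompatibility complex, also has 8 listed neighbours, with a median of 0.17. Higher values in the knockdown were seen there at Rps18 (a ribosomal protein gene, log2 ratio 0.34), Vps52 (0.33), Tapbp (0.28) and H2-K1 (a class I antigen gene, 0.26), whereas the Daxx promoter itself was at -0.10. Around Atrx the 3 listed neighbours were Magt1 at -0.43, Cox7b at -0.14 and Atp7a, a copper transporter gene, at 0.02. Cabin1 has 1 listed neighbour, Gstt3, at 0.09.

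**Figure D3:**
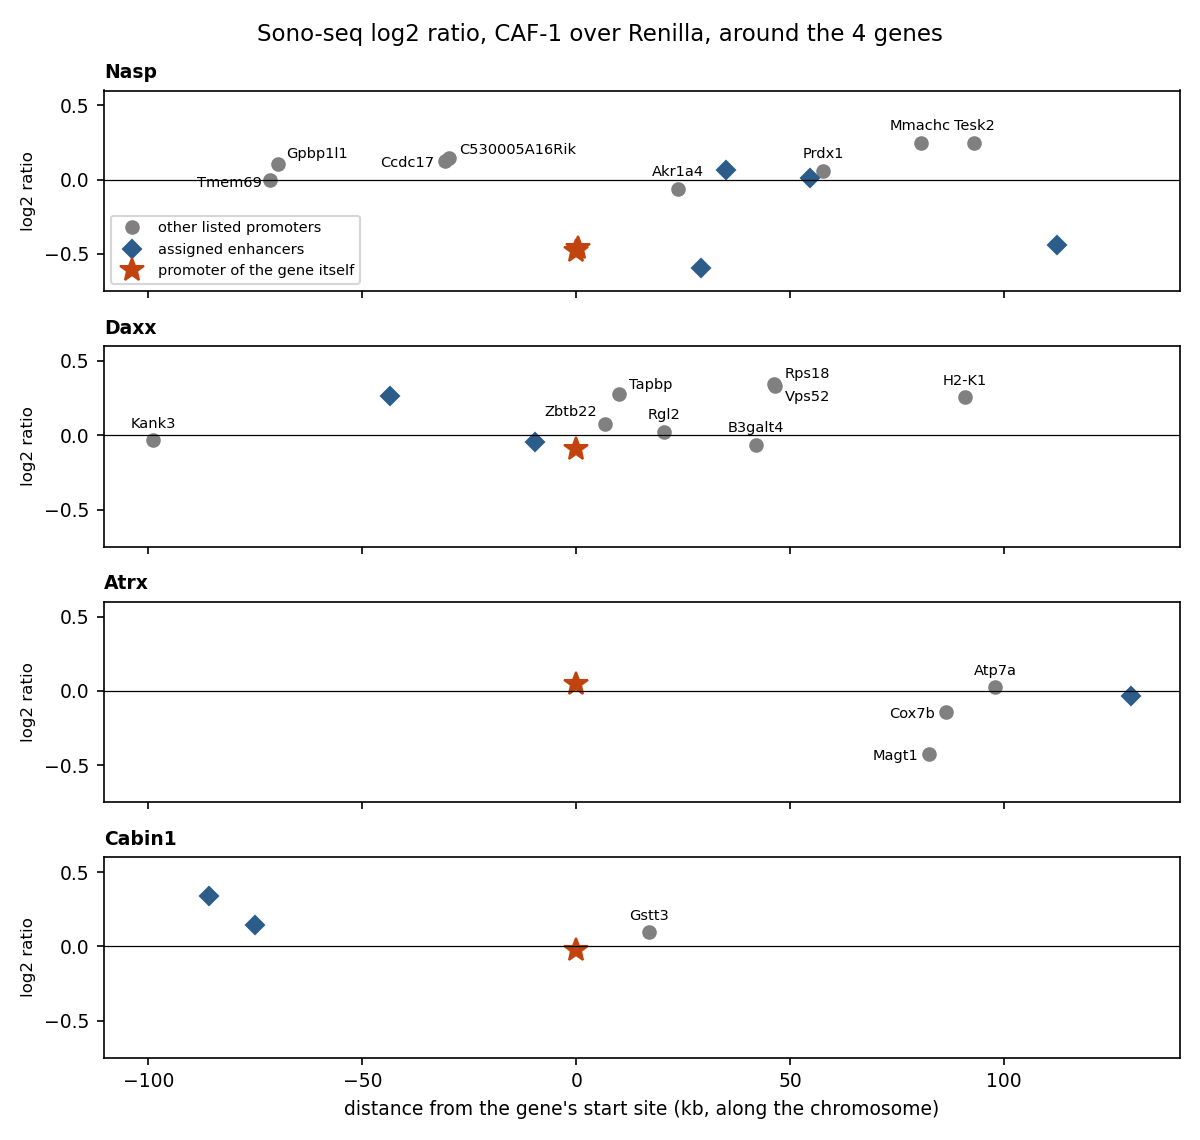
Log2 ratio of the Sono-seq value in CAF-1 knockdown over Renilla (y axis) against distance from the start site in kb (x axis) around each of the 4 genes, with stars for the gene's own promoters, circles for other listed promoters within 100 kb and diamonds for assigned enhancers. The Nasp stars lie near -0.5, below all 8 neighbouring promoters, of which the lowest is Akr1a4 at -0.06.

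The 9 enhancers come from a published set of mouse embryonic stem (ES) cells, per the file headers, and are given as single positions. Each of the 9 was also assigned to at least 1 other gene, while 70.3% of all enhancers have 1 gene and 1.61% have 5 or more. A value at such an enhancer therefore belongs to the region and cannot be tied to the chaperone gene. Genes of the table have a median of 3 enhancers (quartiles 1 and 5), and Nasp has 4, Daxx 2, Cabin1 2 and Atrx 1.

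Of the 4 Nasp enhancers, 2 were lower in the knockdown and 2 were near the control. The enhancer 29.1 kb away (position 116329650) had 0.105 in the knockdown and 0.159 in the control, a log2 ratio of -0.59, and 0.498% of all enhancers had a lower ratio. It lies 5394 bp from the start of Akr1a4, an aldo-keto reductase gene, and was assigned to 7 other genes. The enhancer 112 kb away (position 116412900) had 0.0944 and 0.128, a log2 ratio of -0.44, at percentile 2.24 of all enhancers. The enhancers at 34.9 and 54.6 kb had log2 ratios of 0.07 and 0.01.

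The Cabin1 enhancers were the ones with higher knockdown values at both positions. At 85.8 kb (position 75141350) the value was 0.169 in the knockdown and 0.134 in the control, a log2 ratio of 0.34 that exceeds 90.9% of all enhancers. At 75.2 kb (position 75151900) it was 0.122 and 0.111, a log2 ratio of 0.14. Both are shared with Susd2 alone, whose start is the nearest listed start of both.

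The Daxx enhancer 9.64 kb from its start (position 34036800) had 0.0967 in the knockdown and 0.0999 in the control, a log2 ratio of -0.05. The Daxx enhancer at 43.4 kb (position 34003000) had 0.0660 and 0.0549, a log2 ratio of 0.27 between values that are among the lowest 0.442% of all enhancers. The Atrx enhancer, 130 kb away (position 103254300) and shared with Magt1, Cox7b, Atp7a and Pgk1, had 0.0768 and 0.0785, a log2 ratio of -0.03. Those Atrx values lay near the level of the X chromosome, where 162 enhancers had medians of 0.0774 and 0.0771.

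By the 1.25-fold line, 2 of the 9 enhancers were lower (both assigned to Nasp), beside 6.58% of all enhancers, and 1 was higher (Cabin1), beside 10.3%. By any amount 4 of 9 were lower, beside 44.7%. The median log2 ratio of the 9 was 0.01, beside 0.03 over all enhancers. After the conditions were scaled to a common median of all regions it was -0.0061, so the median has no direction that holds under each scaling.

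Sox2, one of the factors of the cassette, was mapped at 28 positions within 100 kb of the 5 start sites, namely 9 in the Renilla list, 10 in the Chaf1a.166 list and 9 in the Chaf1a.2122 list. Joined where they lie within 200 bp, these are 15 sites, of which 5 were held by all 3 lists. Among 10115 sites within 100 kb of any listed start, 41.8% were held by all 3. When positions were kept for an enrichment lower bound of 2 or more, 0 sites near the 4 genes were left in all 3 lists, beside 32.4% of such sites near any listed start. Nasp had 17 of the positions, Daxx 6, Cabin1 5 and Atrx 0. For comparison, the median over all genes of the table is 7 positions (quartiles 3 and 11), and 92.4% of genes have fewer than Nasp, 41.9% fewer than Daxx and 34.7% fewer than Cabin1.

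The nearest listed start was that of the chaperone gene for 3 of the 28, and 12 of the 28 lay within 1 kb of the start of another, nearer gene. Over all 39859 pairs of a listed gene and a position within 100 kb of it, the gene was the nearest in 52.1%, and the position lay within 1 kb of another, nearer start in 7.84%. Positions that share a site are not independent of each other. The scores are the authors' and are read here within each list. In those ranks 18 of the 28 stood below the median of their list, beside 52.7% of all such pairs. The highest score was 27.6 in the Renilla list (minimum 13.3, maximum 400.1), 32.2 in the Chaf1a.166 list (14.8 and 457) and 39.8 in the Chaf1a.2122 list (12.4 and 384).

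Positions within 100 kb were listed for 3 of the 4 genes under each hairpin. Among all genes the share was 85.2% under Renilla, 84.3% under Chaf1a.166 and 88.1% under Chaf1a.2122. Atrx was without one in any list, beside 7.06% of all genes. Within 10 kb the Renilla list had a position at 0 of the 4 genes (29.3% of all genes), Chaf1a.166 at 3 (28.5%) and Chaf1a.2122 at 1 (33.4%). All 3 lists together had 0 of the 4 (20.8%), and both Chaf1a lists without Renilla had 1 (2.99%). A count over 4 genes is too small to be set against these shares.

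At Nasp, both Chaf1a lists held a position beside the start and the Renilla list held none there. The Chaf1a.166 position (116299257) lay 845 bp from the nearer start, with a score of 15.6 against a list minimum of 14.8, at rank 14661 of 15888. Its enrichment over input was 7.99, with a lower bound of 2.04. The Chaf1a.2122 position (116299355) lay 747 bp from the start, with a score of 12.9 against a minimum of 12.4, at rank 18266 of 19319, and with an enrichment of 13.3 and a lower bound of 1.996. The positions lie 98 bp apart, on the side of the gene body, since RefSeq places Nasp on the minus strand. The Chaf1a.2122 position is lost when a lower bound of 2 is asked for, and also when the lists are cut to equal length, so both hairpins share the position under neither choice.

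The nearest Renilla position was 68791 bp away. Both knockdown positions at Nasp stood just above the end of their lists, and a Renilla position of like strength may lie under the threshold of that list, so that more binding in the knockdown and a threshold crossed by little cannot be told apart. A position of both Chaf1a lists but not of Renilla within 1 kb of a start was found for 69 genes of the table, or 1.34%. The 73 promoters of those genes had a median log2 Sono-seq ratio of -0.04, beside -0.01 over all promoters. Of the 73, 43 (58.9%) were lower in the knockdown, beside 51.8% of all promoters. Nasp, Etv4 and Nlk were the 3 genes at or below the ratio of the Nasp start sites, named after their values were seen. They account for 4 of the 73 promoters, and 2.63% of all promoters had a ratio below that of the Nasp start site of NM_016777. The join of a low Sono-seq ratio and a knockdown Sox2 position at Nasp is thus a description of 1 gene.

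The other 6 Sox2 sites near Nasp lay toward its neighbours, and 4 of them were held by all 3 lists. The site 951 to 980 bp from the start of Gpbp1l1 had scores of 23.2 (Renilla), 27.2 (Chaf1a.166) and 18.9 (Chaf1a.2122). The site at the start of Tesk2, a testis-associated kinase gene, lay 166 to 210 bp from it, with scores of 21.8, 32.2 and 39.8. Beyond Tesk2, at 96.5 kb from Nasp, the scores were 27.6, 26.2 and 19.3, and at 97.6 kb they were 14.8, 21.3 and 20.2. The site at the start of Mmachc, a cobalamin metabolism gene, was in the Renilla list (16.5) and the Chaf1a.2122 list (13.9), and a site at 94.0 kb was in the Renilla list alone (14.8).

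At Daxx no site was shared by all 3 lists. The Chaf1a.166 list had 3 positions, at 6.44 kb (score 17.0, and 241 bp from the start of Zbtb22), 46.2 kb (18.6) and 68.9 kb (17.7). The Chaf1a.2122 list had 2, at 11.2 kb (12.8, near Tapbp) and 46.3 kb (15.8). The site at 46.2 to 46.3 kb, between the starts of Rps18 and Vps52, was in both. The one Renilla position lay at 82.5 kb (18.7), 8289 bp from the start of H2-K1. All 6 positions ranked below the median of their lists.

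At Cabin1, the Chaf1a.166 list held a position 894 bp from the start (75227996), with a score of 18.6 against a minimum of 14.8, at rank 11410 of 15888. Its enrichment was 3.17 with a lower bound of 1.16. It lies upstream, since RefSeq places Cabin1 on the minus strand. A position of Chaf1a.166 alone within 1 kb was found for 1.9% of all genes. The nearest positions of the other lists were 84418 bp (Renilla, score 16.04) and 89273 bp (Chaf1a.2122, score 30.2) away, the latter at a site that all 3 lists held (Renilla 27.2, Chaf1a.166 17.1).

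Atrx had its nearest Sox2 position at 114775 bp (Renilla, score 16.1), with the nearest of Chaf1a.2122 at 220309 bp and that of Chaf1a.166 at 241965 bp. A Renilla position at 131 kb (score 16.4) lay 1179 bp from the Atrx enhancer, and it was the closest that any Sox2 position came to one of the 9 enhancers. On the X chromosome the median gene of 130 had 2 positions within 100 kb and 31.5% had none. The X chromosome held 1.77% of the Renilla positions, 1.83% of those of Chaf1a.166 and 1.85% of those of Chaf1a.2122.

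**Figure D4:**
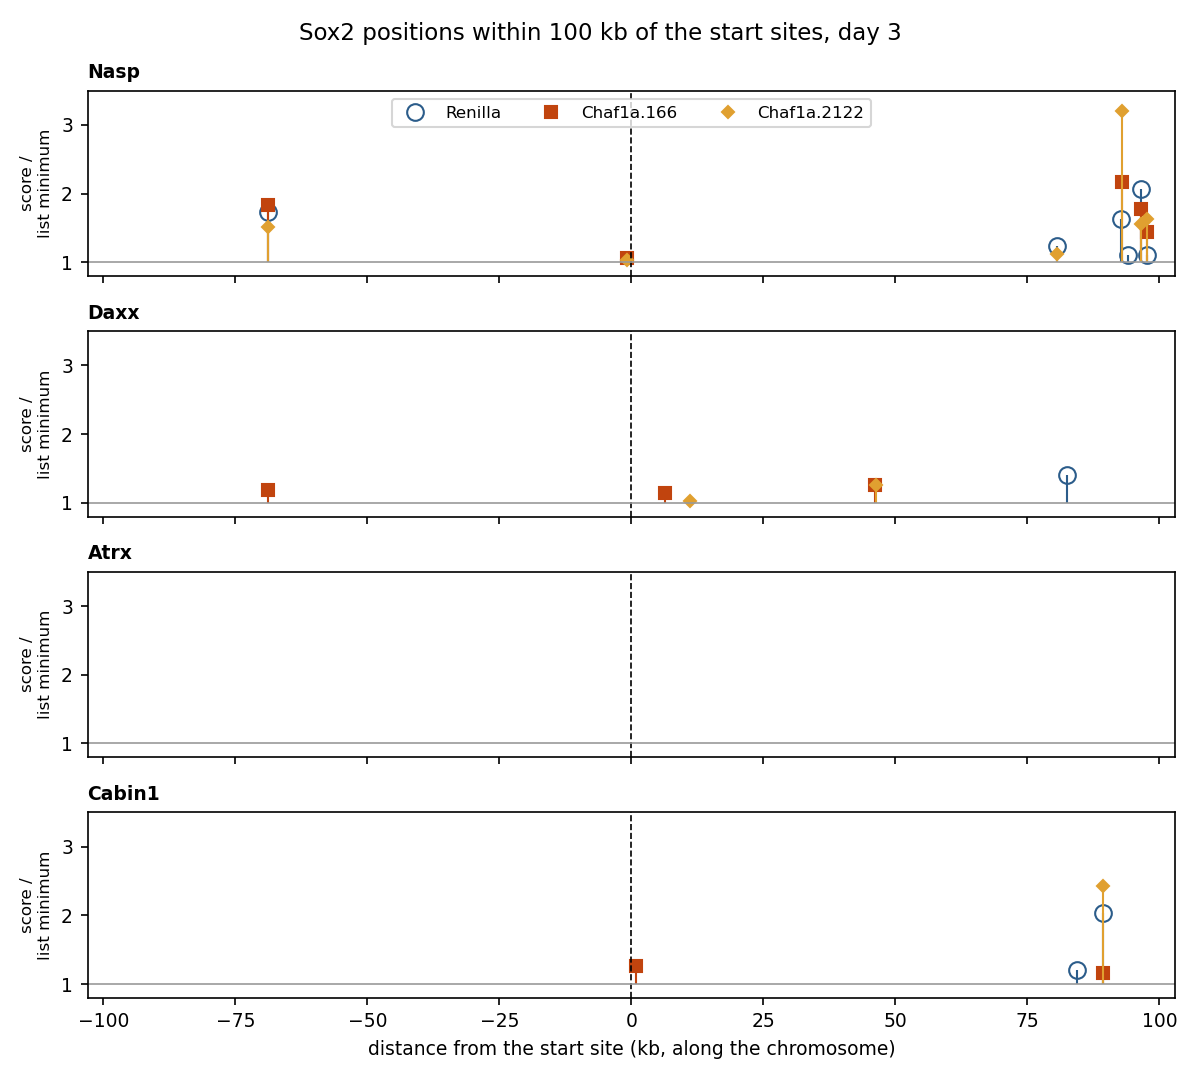
Sox2 positions within 100 kb of the start sites of the 4 genes, by distance along the chromosome in kb (x axis) and by score divided by the minimum of the position's own list (y axis), with open circles for Renilla, squares for Chaf1a.166 and diamonds for Chaf1a.2122. Near distance 0 there are Chaf1a.166 and Chaf1a.2122 positions at Nasp and a Chaf1a.166 position at Cabin1, each below 1.3 times its list minimum, and Atrx has none.

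The window decides what is counted. For Nasp the farthest position inside lay at 97632 bp (score 21.3) and the nearest outside at 106542 bp (18.3). For Daxx these were 82547 bp and 120504 bp, and for Cabin1 89338 bp and 108676 bp. The highest score within 200 kb of Nasp lay outside the window, 141 kb from Nasp, with scores of 108 (Renilla), 101 (Chaf1a.166) and 104 (Chaf1a.2122).

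Other histone chaperones and partners were read from 3 lists compiled for this purpose, of which 17 of 40 genes are in the table, with 18 promoters. Their median log2 ratio was -0.10, beside -0.01 for all promoters. Of the 18, 11 were lower (51.8% of all promoters), 2 of them by at least 1.25-fold (8.98%), and 2 were higher by at least that much (6.68%). The lowest were Cbx5, the heterochromatin protein HP1 alpha, at one of its start sites (0.102 and 0.144, log2 ratio -0.50) and Mcm2, the replicative helicase subunit that binds H3 and H4 (0.138 and 0.173, -0.33). The highest were Npm1, the nucleolar chaperone nucleophosmin (0.151 and 0.111, 0.44), and Morc3 (0.169 and 0.132, 0.36).

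Each list held promoters with lower and with higher values in the knockdown. The 6 H3-H4 chaperone genes in the table had 3 promoters lower and 3 higher, with a median of -0.0035. The 5 H2A-H2B chaperone genes had a median of -0.03, with 3 lower and 2 higher. The 6 genes of H3.3 and its partners had 5 of 7 promoters lower and a median of -0.18. The Nasp start sites stood lower than 17 of these 18 promoters, with Cbx5 the exception.

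Within 10 kb of their starts, 6 of the 17 genes had a Renilla Sox2 position (29.3% of all genes), 8 a Chaf1a.166 position (28.5%) and 7 a Chaf1a.2122 position (33.4%). No list had a position there for 7 of the 17, beside 58.7% of all genes. Rbbp4 (a histone-binding protein that is also a CAF-1 subunit), Set, Trim28 and Npm1, 4 of the 17, had a position in all 3 lists, beside 20.8% of all genes. Chaf1b, another CAF-1 subunit, and Anp32e, a chaperone of H2A.Z, had positions in both Chaf1a lists and not in the Renilla list (2.99% of all genes), as Nasp did, and were named after their values were seen. Their promoters had log2 ratios of 0.13 and -0.03, where Nasp had -0.48 and -0.46.

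**Figure D5:**
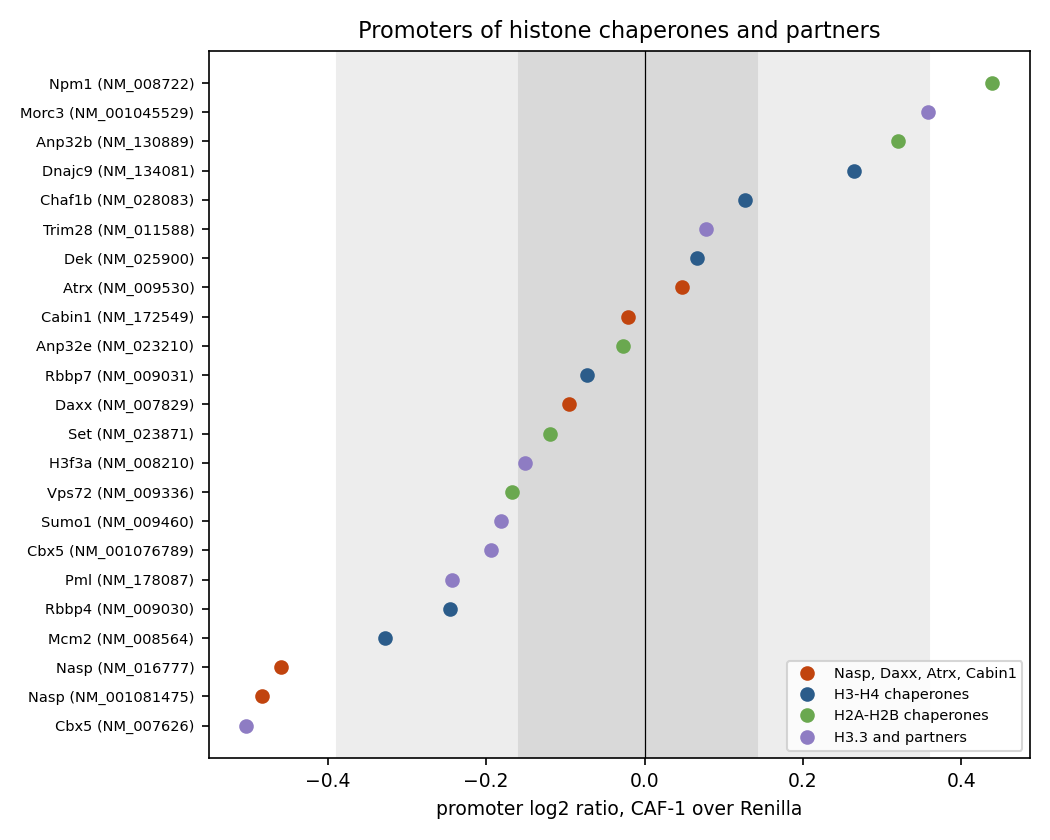
Log2 ratio of the Sono-seq value in CAF-1 knockdown over Renilla (x axis) at the promoters of Nasp, Daxx, Atrx and Cabin1 and of 17 other chaperone genes, 1 point per promoter, coloured by list. The points run from -0.50 at Cbx5 to 0.44 at Npm1, and both Nasp promoters are next to Cbx5 at the low end.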

How the data were processed

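Sox2 ChIP-seq (1 immunoprecipitate and 1 input per hairpin) and Sono-seq (3 libraries per condition) of day 3 were used. Per the submitters' processing notes, the genome build was mm9 and the tools included BWA 0.7.8 and Bowtie, with no role stated. As for the program that called Sox2 positions, it was not given in the sources used here. Each deposited position has, per the file headers, a score, an FDR (q-value), and an enrichment ratio over input with a lower bound. The deposited Sono-seq values were treated as a score, since unit, scaling and the merging of 3 libraries into 1 value are not stated.

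The log2 ratio of CAF-1 over Renilla was taken per region with no pseudocount. The limma fit planned in case single libraries were given was therefore not possible, and no test was made. Sox2 positions within 200 bp were joined. Counting and joining were tested on simulated data. Named genes are the 4 genes, the 2 promoters most like each (1 of which is not reported here), the neighbours and genes sharing an enhancer or Sox2 site, and, of the chaperone lists, both extremes at either end and genes with Sox2 within 10 kb in all 3 lists; genes outside this rule are marked in the text as named after their values were seen. Genes, lists and rules were chosen with earlier results of these data known. The 1.25-fold line is descriptive. Alternatives were scaling, a pseudocount, window, joining distance, enrichment bound and list length. Tools were Python 3.11.15, pandas 2.3.3, numpy 2.4.6 and matplotlib 3.10.9.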

Additional observations from a re-analysis of the deposited data

How the results depend on the processing

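The promoter median of -0.10 (log2), which is the value of Daxx, was negative in each alternative run. A pseudocount added to both values cannot change a sign, and the scalings shift log2 ratios by less than this median. The sign under those runs was thus fixed in advance. The median was -0.11 with both conditions scaled to 1 median over all regions and -0.08 scaled over promoters. It was -0.07 with a pseudocount of 0.05, and -0.06 with 1 value per gene, the last chosen after seeing the data. The pseudocount brought the Nasp start sites to -0.323 (NM_001081475) and -0.304 (NM_016777). The 1.25-fold line is a log2 difference of 0.322, so NM_001081475 passed it barely and NM_016777 no longer did. The enhancer median of 0.01 became -0.0061 when scaled over all regions, a scaling that shifts each log2 ratio by 0.02 toward lower values. The counts of Sox2 positions (9 for Renilla, 10 for Chaf1a.166, 9 for Chaf1a.2122) became 0, 4 and 3 within 50 kb and 23, 20 and 19 within 200 kb, by the construction of the window. Keeping positions whose enrichment has a lower bound of 2 or more, they became 5, 4 and 3, the sites in all 3 lists went from 5 to 0, and at the starts of Nasp and Cabin1 the Chaf1a.166 position of Nasp was the one of 3 that passed. With lists of equal length (15888 positions) the counts were 9, 10 and 6, and the Chaf1a.2122 position at Nasp was lost. Sites in all 3 lists numbered 5 with joining at 100 or 500 bp and with equal lists. Leaving out enhancers assigned to other genes left no enhancer. No paired analysis was possible because the table has 1 value per condition and each hairpin has 1 immunoprecipitate, and for the same reason no replicate could be left out. With depth unknown, absence from a list means a score under its threshold, not absence of Sox2.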
